A study of Mus musculus with 12 samples.

Results

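A set of 9 genes that mark the suprachiasmatic nucleus (SCN) was followed through the hypothalamus arrays: the peptides Vip, Prok2, Grp and Nms, the receptors Vipr2 and Prokr2, and the transcription factors Lhx1, Six6 and Rorb. They were chosen by gene symbol, with no threshold on their values. All 9 genes had at least 1 probe, and together they held 16 of the 56605 probes of the array. Hypothalamus RNA came from male C57BL/6 mice in 4 groups with 3 arrays each. WT were wild-type littermates that did not swim, KO were homozygous Asmt knockouts that did not swim, WT-swim were wild-type mice and KE were Asmt-knockout mice, both trained to swim. Asmt encodes the last enzyme of melatonin synthesis. The paper states that the C57BL/6J strain has low Asmt activity and is short of melatonin from birth. It found no main effect of the knockout on serum melatonin. The knockout came from Cas9 founders with a 20 bp deletion, which were backcrossed for 3 generations, so that every cell of the mouse carried the deletion. All mice were labelled 6 to 7 weeks old, an age that the methods place at the start of swimming, and all were kept in 12 h of light and reared for 3 weeks before the groups were formed. The hour of day at which the hypothalamus was taken is not given in the sources used here.

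The SCN is a small paired nucleus above the optic chiasm and holds the main circadian clock of mammals. Its ventral neurons, which receive input from the retina, make vasoactive intestinal peptide (Vip) and gastrin-releasing peptide (Grp). VIP acts through the receptor encoded by Vipr2 and keeps the SCN neurons in step with each other. Prokineticin 2 (Prok2) is secreted with a daily rhythm and carries SCN output to target regions through its receptor (Prokr2), and neuromedin S (Nms) is a peptide found mainly in the SCN. Lhx1 and Six6 are homeodomain factors needed for the SCN to form or mature, and Rorb is a nuclear receptor found in the SCN, the retina and sensory relays. Through a path that ends in the pineal gland, the SCN sets the nightly rhythm of melatonin, and it carries melatonin receptors itself.

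The upstream regions of 3 genes are shown because each holds the letters of a motif that factors of the clock or of its light input are known to bind. The windows are the 250 bases before the RefSeq start site on the strand of the gene, in build GRCm38.p6. They lie at chr10:5638968-5639217 on the plus strand for Vip, at chr6:99726393-99726642 on the minus strand for Prok2 and at chr2:132385448-132385697 on the minus strand for Prokr2. Capitals mark the core of a cAMP response element (TGACG) in Vip, an E-box (CACGTG) in Prok2 and an AGGTCA half-site of the ROR and REV-ERB receptors in Prokr2.
Vip: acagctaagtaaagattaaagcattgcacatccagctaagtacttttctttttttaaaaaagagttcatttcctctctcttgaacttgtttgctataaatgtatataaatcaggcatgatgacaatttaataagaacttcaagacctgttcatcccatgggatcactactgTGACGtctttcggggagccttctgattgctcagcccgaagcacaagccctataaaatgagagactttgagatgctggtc
Prok2: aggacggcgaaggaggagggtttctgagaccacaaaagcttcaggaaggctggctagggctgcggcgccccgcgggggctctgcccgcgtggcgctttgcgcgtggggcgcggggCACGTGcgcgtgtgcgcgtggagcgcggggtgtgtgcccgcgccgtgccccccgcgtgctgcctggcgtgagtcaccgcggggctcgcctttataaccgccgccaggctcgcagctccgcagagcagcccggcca
Prokr2: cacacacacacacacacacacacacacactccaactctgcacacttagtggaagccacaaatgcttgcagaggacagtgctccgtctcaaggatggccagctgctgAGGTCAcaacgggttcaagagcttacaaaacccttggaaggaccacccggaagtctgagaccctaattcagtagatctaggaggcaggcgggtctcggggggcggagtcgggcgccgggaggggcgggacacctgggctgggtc
The capitals begin 79 bases before the start in Vip, 135 in Prok2 and 144 in Prokr2. Each motif was searched on both strands, and none of the motifs overlapped another in these windows. Of 32851 upstream windows of the same length, 17.8% held TGACG, 6.02% held CACGTG and 14.0% held AGGTCA. Windows were matched for 8 of the 9 genes, and among the others Lhx1 held TGACG, 50 bases before its start. A match is a description of the letters and was not tested as a binding site.

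The values below are log2 processed signals after quantile normalization, where 1 unit is a doubling. Of the 59305 spots of an array, 36543 to 40276 rose well above background and 0 were saturated. The probe of Asmt, the targeted gene, was not well above background on any of the 12 arrays, and it gave no check of the genotype. The arrays lay on 2 slides. Slide 1 carried WT 1 to 3, KO 1 and KO 2, and slide 2 carried KO 3 and all swimmers. Principal component 1 held 48.5% of the variance of the tested probes and separated the slides, with KO 3 at 40.2, the swimmers between 19.3 and 33.8 and slide 1 between -47.4 and -29.5. WT and swimmers shared no slide, and only the KO arrays linked the slides. Each fit was therefore repeated with slide as a block, and there KO versus WT rests on slide 1 and KE versus KO on 1 KO array. Of the 12 hypothalamic genes looked up, 11 (among them Oxt, Avp, Pomc, Agrp, Hcrt and Nkx2-1) were well above background on all 12 arrays and Sim1 on 9. All 4 thalamic, 6 striatal and 6 oligodendrocyte markers were also well above background on all 12 arrays. The same held for 5 of 6 choroid plexus and 3 of 6 cortical markers. Detection alone therefore does not tell hypothalamus from neighbouring tissue.

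The leading probe of each SCN gene, the one seen on the most arrays and then the brightest, was well above background on all 12 arrays. With 2 further probes of Lhx1, 11 of the 16 probes passed the filter, which asked for detection on all 3 arrays of at least 1 group. The 5 others, 3 of Vipr2, 1 of Prok2 and 1 of Prokr2, were dim on nearly all arrays and were not tested. No SCN probe (0 of 11) had an adjusted p under 0.05 in limma in any of the 6 comparisons, with or without the slide block. The background was as thin: of 35230 tested probes 0% were called for WT-swim or KE against WT, for KE against WT-swim, for KO against WT and for the swimming by genotype interaction, and 0.0199% (7 probes) for KE against KO. With the slide block 0.00852% were called for KO against WT, 0.0255% for KE against KO and 0% for the others. At an unadjusted p under 0.05, 1 SCN probe (Prokr2 in KO versus WT) stood against 5.47% of all tested probes, and 0 SCN probes stood against 21.1% in KE versus KO, 25.9% in WT-swim versus WT, 30.4% in KE versus WT, 6.71% in KE versus WT-swim and 7.76% in the interaction.

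**Figure D1:**
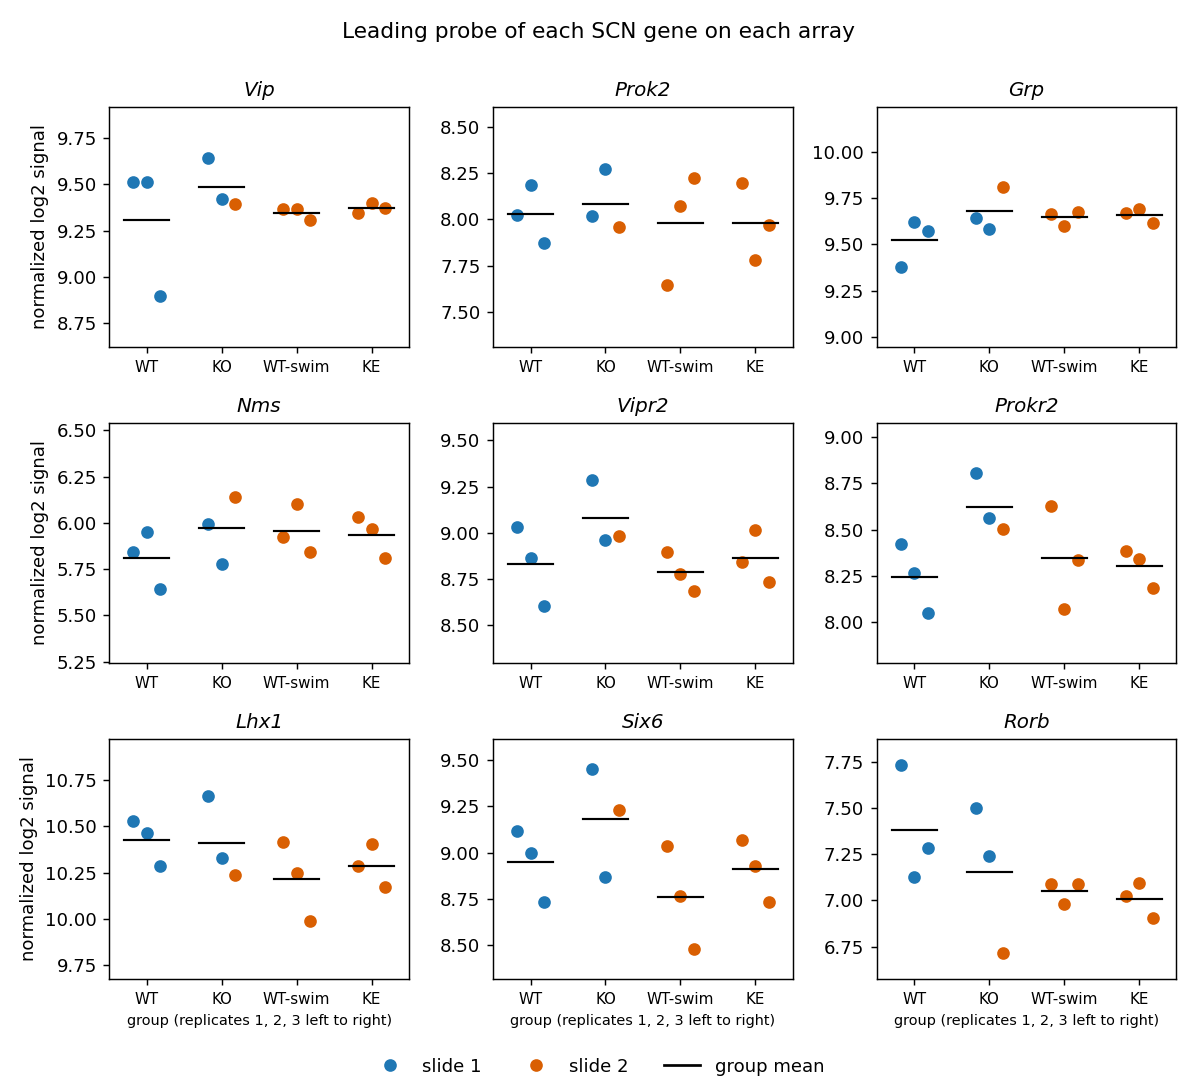
Normalized log2 signal (vertical axis, the same span in every panel) of the leading probe of each SCN gene on the 12 arrays, by group on the horizontal axis, with replicates 1 to 3 from left to right. Points are arrays coloured by slide and lines are group means. The 3 KO arrays of Prokr2 lay above the 3 WT arrays, from 8.50 to 8.81 against 8.05 to 8.42. For Rorb the slide 1 arrays ran from 7.12 to 7.73 and the slide 2 arrays from 6.72 to 7.09.

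Among the peptides, Vip was the gene in which a single WT array set the spread. Its probe lies on chromosome 10 of mm9 between 4699681 and 4701551, a span of 1871 bases that is longer than the 60 bases listed for the other SCN probes. Its signal was 9.51, 9.51 and 8.90 in WT, 9.64, 9.42 and 9.39 in KO, 9.37, 9.37 and 9.31 in WT-swim and 9.34, 9.40 and 9.37 in KE mice. WT 3 was the lowest of the 12 arrays and KO 1 the highest, and the 6 swimmers lay between 9.31 and 9.40. The log2 difference between KO and WT was 0.18 (SE 0.15, adjusted p = 0.846 from limma), and without WT 3 it was -0.03. KE differed from KO by -0.11 (SE 0.15, adjusted p = 0.678 from limma) and WT-swim from WT by 0.04. Without WT 3 the difference between WT-swim and WT was -0.17. In bulk tissue, fewer VIP neurons and less Vip RNA per neuron cannot be told apart, and the same holds for every gene below.

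Prok2, the rhythmic output peptide, spread as widely within groups as between them. Its probe (chromosome 6 of mm9, 99661399 to 99661458) gave 8.02, 8.19 and 7.87 in WT, 8.02, 8.27 and 7.96 in KO, 7.65, 8.08 and 8.22 in WT-swim and 8.20, 7.78 and 7.97 in KE mice. All 4 groups overlapped. The differences were 0.06 for KO versus WT, -0.10 for KE versus KO, -0.05 for WT-swim versus WT and 0.00 for KE versus WT-swim, with a standard error of 0.16 each. The lowest array was WT-swim 1, without which WT-swim versus WT was 0.12 and KE versus WT-swim -0.17.

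Grp, the second peptide of the retinal target region, was the steadiest of the SCN genes. Its signal was 9.38, 9.62 and 9.58 in WT, 9.64, 9.59 and 9.81 in KO, 9.67, 9.60 and 9.68 in WT-swim and 9.67, 9.69 and 9.61 in KE mice. The lowest was WT 1 and the highest KO 3, and 25.3% of tested probes had a lower SD over the 12 arrays than Grp, whose SD was 0.10. KO exceeded WT by 0.16 (SE 0.08, adjusted p = 0.846 from limma), and by 0.09 on slide 1 alone.

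Nms, the dimmest of the 9 leading probes, gave 5.84, 5.95 and 5.64 in WT, 5.99, 5.78 and 6.14 in KO, 5.92, 6.10 and 5.84 in WT-swim and 6.03, 5.97 and 5.81 in KE mice. WT 3 was again the lowest array, and the groups overlapped. KO versus WT was 0.16 (SE 0.12, adjusted p = 0.846 from limma) and 0.07 without KO 3, and the other differences between groups ran from -0.04 to 0.14. With the slide block WT-swim versus WT turned from 0.14 to -0.11 and KE versus WT from 0.12 to -0.13, and KE versus KO was -0.21.

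Of the receptors, Prokr2, which carries the PROK2 signal into target cells, showed the widest separation of KO from WT. The probe lies on chromosome 2 of mm9 from 132196949 to 132197008. Its signal was 8.42, 8.27 and 8.05 in WT, 8.81, 8.57 and 8.50 in KO, 8.63, 8.07 and 8.33 in WT-swim and 8.39, 8.34 and 8.18 in KE mice. Every KO array lay above every WT array, as for 3.6% of tested probes, and every KE array lay below every KO array, as for 15.4%. KO exceeded WT by 0.38 (SE 0.15, 95% interval 0.05 to 0.71, a 1.30-fold difference), with an unadjusted p of 0.028 and an adjusted p of 0.846 from limma. On slide 1 alone the difference was 0.44 (adjusted p = 0.866 with the slide block). KE differed from KO by -0.32 (SE 0.15, adjusted p = 0.244 from limma), which was -0.20 with the slide block. The interaction, the effect of swimming in knockouts minus that in wild types, was -0.42 (SE 0.21, adjusted p = 0.662 from limma). Neither the difference between genotypes nor the interaction passed the adjustment over all probes. KO versus WT ran from 0.28 to 0.47 over the 25 settings tried. Because every KO array lay above every WT array, leaving out arrays or a slide could not turn its sign. The sign also held in all 25 settings for Grp, Nms, Vipr2, Six6 and Rorb, though Rorb came as near 0 as -0.01. It turned in 1 setting for Vip, 2 for Prok2 and 7 for Lhx1. The settings reuse the same arrays, so a sign that holds is not a replication.

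Vipr2, the receptor of VIP on SCN neurons, was measured at 9.03, 8.86 and 8.60 in WT, 9.29, 8.96 and 8.98 in KO, 8.90, 8.78 and 8.69 in WT-swim and 8.84, 9.01 and 8.73 in KE mice. KO 1 was the highest and WT 3 the lowest array, as for Vip and Prokr2, and the groups overlapped. KO exceeded WT by 0.25 (SE 0.13, adjusted p = 0.846 from limma), or by 0.13 without WT 3, and KE differed from KO by -0.22 (SE 0.13, adjusted p = 0.344 from limma), or by -0.11 without KO 1.

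Lhx1, the homeodomain factor of mature SCN neurons, is the only one of the 9 genes with several tested probes. The leading probe (chromosome 11 of mm9, 84333052 to 84333111) gave 10.53, 10.46 and 10.28 in WT, 10.66, 10.33 and 10.24 in KO, 10.42, 10.25 and 9.99 in WT-swim and 10.29, 10.40 and 10.17 in KE mice. The groups overlapped, KO versus WT was -0.02 (SE 0.14) and WT-swim versus WT was -0.21 (SE 0.14, adjusted p = 0.346 from limma), which turned to 0.05 with the slide block. KO versus WT had no stable sign, since it differed from that value in sign in 7 of 25 settings and both other probes gave 0.17. The probe at 84331888 to 84331947 gave 8.84, 8.84 and 8.58 in WT and 8.96, 8.999 and 8.95 in KE mice. There each KE array exceeded each WT array, as for 16.5% of tested probes, with a difference of 0.22 (adjusted p = 0.329 from limma) against -0.14 for the leading probe. The probe at 84331533 to 84331592 differed by -0.07. The 3 probes therefore disagreed in direction for KE versus WT. With the slide block the leading probe turned to 0.12 and the probe at 84331888 to -0.11, while the last stayed at -0.07.

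Six6, a homeodomain factor of the embryonic SCN and eye, had a signal of 9.12, 8.999 and 8.73 in WT, 9.45, 8.87 and 9.23 in KO, 9.04, 8.76 and 8.48 in WT-swim and 9.07, 8.93 and 8.73 in KE mice. The range over the 12 arrays was 0.97, from WT-swim 3 to KO 1, and the groups overlapped. KO versus WT was 0.23 (SE 0.18, adjusted p = 0.846 from limma) and KE versus KO was -0.27 (SE 0.18, adjusted p = 0.391 from limma). Without KO 1 these were 0.10 and -0.14.

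Rorb had a lower signal on every array of slide 2, which carried all swimmers, than on any array of slide 1. Its probe (chromosome 19 of mm9, 19050603 to 19050662) gave 7.73, 7.12 and 7.28 in WT, 7.50, 7.24 and 6.72 in KO, 7.09, 6.98 and 7.09 in WT-swim and 7.02, 7.09 and 6.91 in KE mice. All swimmers lay below all WT arrays, as for 22.1% of tested probes in WT-swim versus WT and 27.6% in KE versus WT, and KO 3, the only array of slide 2 from mice that did not swim, was the lowest of all. Slide 2 differed from slide 1 by -0.65 within the fit of groups and slides (SE 0.22, adjusted p = 0.0782 from limma). WT-swim versus WT was -0.33 (SE 0.19, adjusted p = 0.303 from limma) and turned to 0.32 with the slide block, and KE versus WT was -0.37 (adjusted p = 0.221) and turned to 0.28. For Rorb, slide and swimming cannot be told apart beyond what KO 3 alone gives, and KO versus WT was -0.23 with KO 3 and -0.01 without it.

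**Figure D2:**
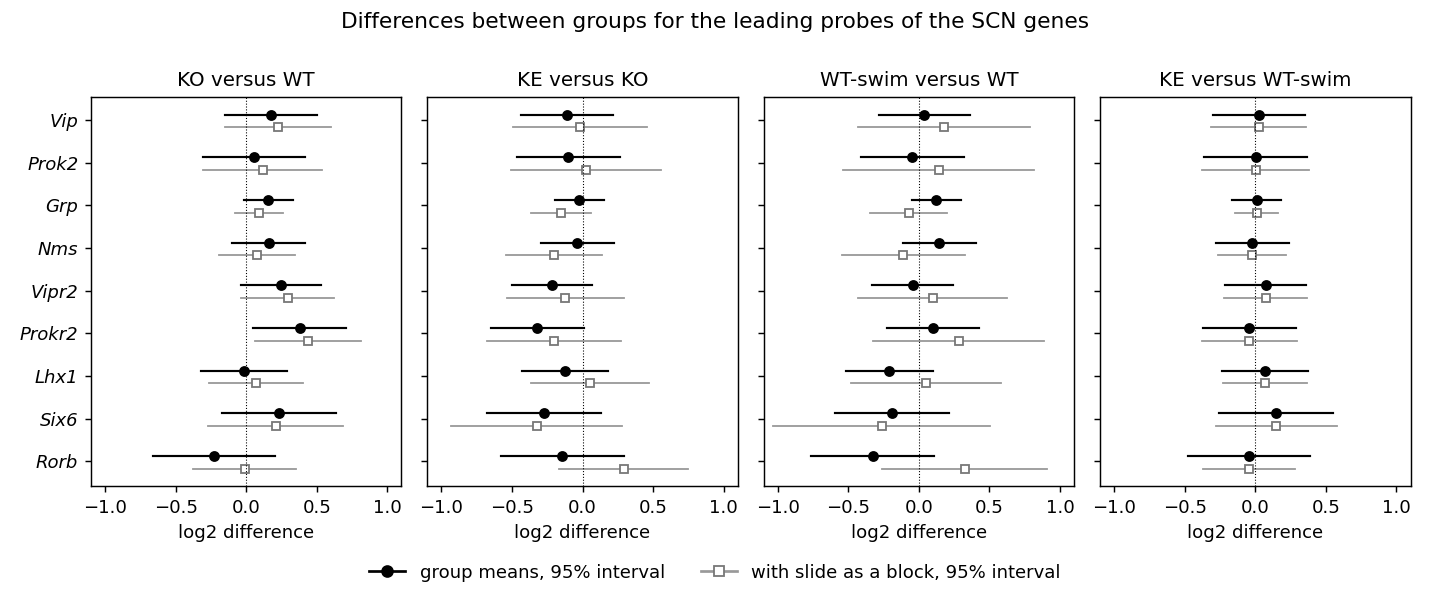
Log2 difference (horizontal axis) of the leading probe of each SCN gene in 4 comparisons, first group minus second. Filled circles and black lines are the estimates and 95% intervals from the group means, and open squares and grey lines are those with the slide as a block. In KO versus WT the interval of Prokr2, from 0.05 to 0.71, lay above 0, and the other intervals of that fit crossed 0.

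As a list, 7 of the 9 leading probes were higher and 2 lower in KO than in WT, with a median difference of 0.16 against -0.01 over all tested probes, of which 46.1% were higher. In KE versus KO all 9 were lower, with a median of -0.12 against -0.04 over all probes, of which 58.4% were lower. These comparisons share the KO arrays. With the slide block 8 were higher in KO than in WT (49.8% of all probes), and 6 were lower (54.9%) and 3 higher in KE than in KO. In WT-swim versus WT, 4 were higher (41.6% of all probes) and 5 lower (median -0.04), in KE versus WT 5 were higher (37.4%) and 4 lower (median 0.03). WT and swimmers shared no slide, and with the slide block both of these became 6 higher and 3 lower, with medians of 0.10 and 0.14, against 51.7% and 47.2% of all probes higher. The signs of 6 and 5 of the 9 genes turned. In KE versus WT-swim 6 were higher (46.7%) and 3 lower (median 0.01). No member passed the test in any of these. The 95% intervals of the 9 genes reached from -0.66 to 0.71 for KO against WT, from -0.68 to 0.29 for KE against KO, from -0.76 to 0.43 for WT-swim against WT and from -0.48 to 0.55 for KE against WT-swim. The farthest bounds correspond to 1.63-fold, 1.60-fold, 1.70-fold and 1.47-fold differences. With the slide block the intervals reached from -0.37 to 0.82, from -0.93 to 0.75, from -1.04 to 0.91 and from -0.38 to 0.58 in the same order.

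Several SCN genes varied together from array to array, though not Prok2 or, over all 12 arrays, Grp. After the group and slide means were removed from each probe, Lhx1 and Six6 had a Pearson r of 0.94 over the 12 arrays (Spearman rho 0.92), Vipr2 and Lhx1 0.89 (rho 0.87), Vipr2 and Six6 0.84 (rho 0.83) and Vip and Vipr2 0.77 (rho 0.88). Without the 2 arrays farthest from the median of the gene named first, these were 0.90, 0.92, 0.84 and 0.59. Within slide 2 alone (7 arrays, with no means removed) they were 0.69, 0.76, 0.81 and 0.77. These correlations are descriptions over arrays that share their normalization, and they rest on fewer independent values than arrays, since the group and slide means were fitted, KO 3 is fitted exactly by its slide and the deviations of KO 1 and KO 2 mirror each other.

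**Figure D3:**
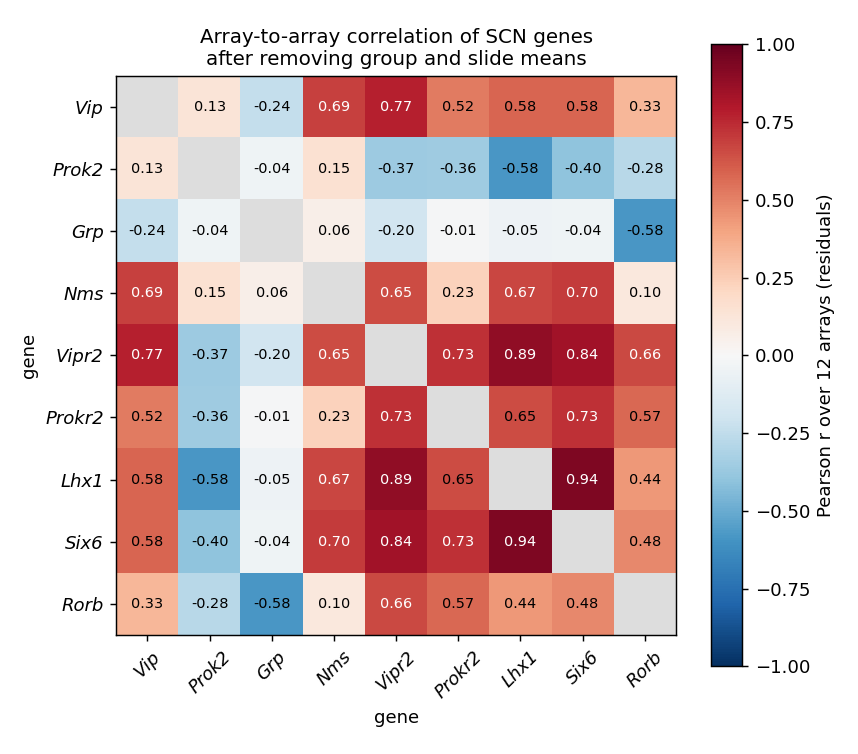
Pearson r between the leading probes of the SCN genes over the 12 arrays, after removal of group and slide means. Colour and number in each cell give r, and grey marks the diagonal. Among Vip, Nms, Vipr2, Prokr2, Lhx1 and Six6, a grouping read from these same values, r ran from 0.23 to 0.94. Prok2 and, over all 12 arrays, Grp lay below that range with each of them. Rorb had r from 0.105 (Nms) to 0.66 (Vipr2) with them. The lowest r of the grouping, Nms with Prokr2, was -0.11 without 2 arrays and 0.06 within slide 2.

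Of the 36 pairs of SCN genes, 24 had an r above 0 and 16 (44.4%) an r above 0.5, against 12.8% of all pairs among 18259 genes, and the median r was 0.38 against 0.01. With each array left out in turn, the share above 0.5 ran from 38.9% without WT 3 to 55.6% without WT 2, and r of Lhx1 with Six6 ran from 0.91 to 0.98. Within slide 2 the median was 0.20. Compared with the mean of the 8 other genes, r was 0.89 for Vipr2, 0.85 for Six6, 0.77 for Lhx1, 0.73 for Vip, 0.70 for Nms, 0.66 for Prokr2 and 0.35 for Rorb. Over the 12 arrays Prok2 (-0.31) and Grp (-0.20) ran apart from the rest. Within slide 2, however, Grp had an r of 0.64 with Prokr2, 0.64 with Vipr2, 0.615 with Six6 and 0.45 with Nms. There r of Grp was 0.27 with Vip, 0.05 with Lhx1, -0.11 with Prok2 and -0.54 with Rorb. Whether Grp varies with the other genes is not read from these values. Prok2 and Lhx1 had an r of -0.58 (rho -0.57), which was -0.24 without 2 arrays and -0.76 within slide 2. Grp and Rorb had an r of -0.59 (rho -0.09) that turned to 0.59 without 2 arrays and was -0.54 within slide 2, so no direction is read from it. The 3 probes of Lhx1 had r from 0.78 to 0.89 with one another.

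By signal, KO 1 was the highest array for 5 of the 9 genes (Vip, Vipr2, Prokr2, Lhx1 and Six6), and WT 3 the lowest for 4 (Vip, Nms, Vipr2 and Prokr2). The mean standardized residual of the 9 genes was 0.76 on KO 1, -0.76 on KO 2, 0.62 on WT 1, -1.08 on WT 3 and -0.67 on KE 3. Across arrays it had an r of -0.05 with the share of spots well above background, -0.13 with the 75th percentile of the signal and -0.26 with the number of outlier spots.

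**Figure D4:**
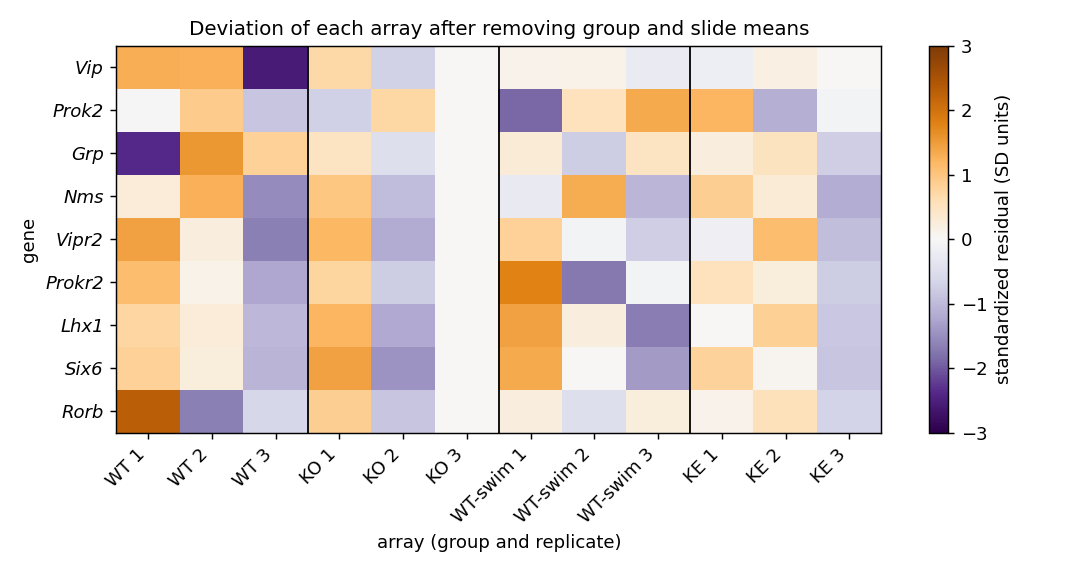
Standardized residual (colour, in SD units) of each SCN gene on each array after removal of group and slide means, with the arrays in columns and the groups set apart by lines. WT 3 and KE 3 are low for most genes and WT 1 and KO 1 high, and KO 3 is at 0 by construction.

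Markers of neighbouring regions moved with this pattern to unequal degrees. The mean residual of the SCN genes had an r of 0.89 with Nkx2-1, a regulator of the ventral hypothalamus, 0.81 with Pomc and 0.70 with Agrp of the arcuate nucleus. It was -0.92 with Crh, the corticotropin-releasing peptide, and -0.65 with Oxt, both peptides of the paraventricular nucleus. Other genes of that nucleus did not share this sign, since Trh was at 0.48, Sim1 at 0.42 and Avp at 0.05. Over the 12 hypothalamic markers the range was -0.92 to 0.89, with a median of 0.31. The 6 oligodendrocyte genes of the optic tract all lay below 0 (-0.60 to -0.05), as did 5 of 6 striatal and 5 of 6 choroid plexus markers. Of the 4 cortical markers tested 2 lay above 0, with a median of -0.21 and a range from -0.96 (Tbr1) to 0.55 (Cux2), while Emx1 was above background on no array and Slc17a7 on 3. Of the 16 other genes of the SCN and its relays that were tested, 9 lay above 0. Their median r was 0.05, with a range from -0.74 (Nmu) to 0.60 (Zfhx3). The pattern is therefore not read as one of the SCN as a whole. Over all other genes the median r was -0.07, and 11.8% exceeded 0.5. The summed signal of the oligodendrocyte genes was between 155100 and 168400 in WT, 143500 and 165400 in KO, 151400 and 161600 in WT-swim and 139100 and 170600 in KE mice. The summed signal of the 7 pituitary genes was between 392 and 477 in WT, 441 and 3865 in KO, 446 and 2433 in WT-swim and 446 and 2778 in KE mice. Some KO and swimmer arrays thus lay far above all WT arrays, with Cga, the shared subunit of the glycoprotein hormones, well above background on 5 arrays, Pitx1 on 4, Prl on 3 and Gh on 0. Tshb, Lhb and Lhx3, the 3 pituitary genes tested, had r of -0.21, 0.12 and 0.35 with the mean residual of the SCN genes. The part of dissection in these relations and in the differences between groups was not tested.

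Other genes of the SCN and its relays gave no call either. Of the 19 looked up, 16 passed the filter, and 0 had an adjusted p under 0.05 in limma in any comparison, with a median difference of 0.01 between KO and WT and of -0.11 between KE and KO. At an unadjusted p under 0.05 in KE versus KO, 1 of these 16 genes was higher (8.1% of all tested probes) and 3 were lower (13% of all), a share near that of all probes. These 4 are given as descriptions. Rasd1, a dexamethasone-induced Ras protein that takes part in the response of the SCN to light, averaged 8.32 ± 0.24 in KO and 7.77 ± 0.14 in KE mice (SD, n = 3 each). The difference was -0.55 (SE 0.17, adjusted p = 0.161 from limma), and -0.28 with the slide block. Rgs16, a regulator of G-protein signalling in dorsal SCN neurons, differed by -0.31 (adjusted p = 0.189 from limma) and the nuclear receptor Rora by -0.18 (adjusted p = 0.218 from limma). Zfhx3, a zinc finger factor of the SCN, differed by 0.33 (adjusted p = 0.179 from limma). With the slide block the differences were -0.20, -0.01 and 0.07. Prok1, Avpr1b and Nmur1 were well above background on 1, 0 and 0 arrays, so the genes of the other ligand of PROKR2 and of the NMS receptor NMUR1 were dim, whereas the receptor genes Nmur2, Grpr and Prokr1 were seen on all 12 arrays.

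All 14 core clock genes passed the filter, and 0 had an adjusted p under 0.05 in limma in any comparison, with a median difference of 0.01 between KO and WT and of 0.00 between KE and KO. The lowest adjusted p in KE versus KO was that of Ciart, a repressor of the clock activators, which averaged 7.34 ± 0.08 in KO and 7.77 ± 0.23 in KE mice (SD, n = 3 each; difference 0.44, SE 0.12, adjusted p = 0.154 from limma, 0.35 with the slide block). Bhlhe40 differed there by -0.19 (adjusted p = 0.171 from limma). Cry1 differed between WT-swim and WT by 1.29 (SE 0.43, adjusted p = 0.115 from limma), which turned to -0.56 with the slide block. With the mean residual of the SCN genes, 8 of the 14 had an r above 0, with a median of 0.29. An r above 0.5 was found for 4 of them, against 11.8% of all other genes. Above 0 were Arntl (0.70), Clock (0.61), Per3 (0.61), Bhlhe40 (0.60), Cry2 (0.34), Bhlhe41 (0.32), Per2 (0.31) and Per1 (0.265). Below 0 were Nr1d2 (-0.75), Nr1d1 (-0.71), Dbp (-0.65), Ciart (-0.58), Cry1 (-0.45) and Npas2 (-0.315).

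The genes whose residuals were most like that of Vip over the 12 arrays, among 18250 genes ranked, were Gm16208 (r 0.96), Rnu12 (0.96), Plec (0.95), Hnrnpr (0.95) and 0610009L18Rik (0.94). Within slide 2 their r with Vip was -0.07, 0.54, -0.03, -0.14 and 0.31, so the likeness lay mostly in the arrays of slide 1. The genes most like the mean of the 9 were Ccdc84 (0.97), Rreb1 (0.96), Slfn9 (0.96), Apc2 (0.96) and 4930447C04Rik (0.95). Of these, Apc2 (0.80) and 4930447C04Rik (0.61) kept an r above 0.5 within slide 2.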

How the data were processed

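Total RNA of the hypothalamus was hybridized in one color (Cy3) to Agilent SurePrint G3 mouse arrays, 12 in all. The authors deposited the scanner output, whose values are spot intensity with the background subtracted by Agilent Feature Extraction (10.7.1.1 per the labels), and a table of the raw intensity beside log2 values that were quantile-normalized in GeneSpring. The raw column matched the scanner values within 0.01 on the log2 scale for 56605 of 56605 probes per array. The authors' 4 comparison tables hold fold changes and p-values and were not used, nor were their 24 value columns.

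Outlier spots were dropped, the log2 processed signal was averaged over the spots of each probe, and the arrays were brought to one distribution by quantiles. Probes detected well above background throughout at least 1 group of 3 arrays were tested (35230 of 56605), and 0 values of the SCN probes were missing. Group means were fitted with limma 3.58.1 (R 4.3.3, eBayes) over 12 arrays, and p-values were adjusted by Benjamini-Hochberg over all tested probes. The number of arrays limits the precision. Samples were grouped by their titles, and the wild-type exercise group is called WT-swim. The labels say nothing of how the mice of a group relate to each other, so p-values measure the spread between these samples. Residuals for correlations were taken from a fit of group and slide. The fit was tested on simulated data. Of 200 probes changed by 2 log2 units among 35230, between 185 and 195 were recovered, depending on the comparison. False calls ran from 7 to 19. Recovery of differences as small as those of the SCN genes was not tested.

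The members and gene lists were chosen with earlier results of these data known, so no p-value was adjusted over a list alone. The rule for named genes took all 9 members, Asmt, genes of the lists (other SCN and relay genes, core clock, and markers of hypothalamus, thalamus, cortex, striatum, choroid plexus, pituitary and optic tract oligodendrocytes) and the 5 genes most like Vip and the mean of the members. Of the 4 thalamic markers 1 had an r above 0 with that mean, and of the 3 pituitary markers tested 2 did. One cortical marker is not reported here. In all, 0 genes of any marker list had an adjusted p under 0.05. The alternatives changed the scaling (75th percentile), the background correction (normexp, offset 50), the source of values (the normalized table), the detection filter (none, or all 12 arrays), the arrays fitted (only the groups compared, only 1 slide, or without each array), the prior (trended), the test (the methods' t-test), the block (slide or replicate number), the outlier spots (kept) and the probes (averaged per gene). Probe positions come from the annotation of the array in build mm9, and exons and UTRs were not looked up. Upstream sequences are from RefSeq. Plots were drawn with Python 3.11.15 and matplotlib 3.10.9.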

Additional observations from a re-analysis of the deposited data

Results flagged for a closer look

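Of the signals outside the tested probes, that of the second probe of Prok2, on chromosome 6 of mm9 from 99672150 to 99672209, was well above background on 1 of 12 arrays, WT-swim 3, with a normalized log2 signal of 4.28. There it exceeded the highest value of a WT control array, 3.31. KO 1, KO 2 and KE 2, at 3.64, 3.42 and 3.59, also exceeded that value but were not well above background. The leading Prok2 probe was at 8.22 on the same array, the highest of the WT-swim group, and no test was made of the dim probe.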

How the results depend on the processing

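The count of SCN probes with an adjusted p under 0.05 was 0 in each of the 6 comparisons and in all 145 recomputed counts under the alternatives that could be fitted, so leaving out each array in turn gave 0 to 0. With the replicate number as a block the count was also 0. Arrays with the same number correlated between -0.19 and 0.25 in their deviations from the group means, so the numbers were not taken to pair the mice. Of 1305 recomputed log2 differences of single genes, 33 moved by more than their standard error, 24 of them with the slide as a block or alone. The other moves came from averaging the Lhx1 probes (WT-swim versus WT -0.06, KE versus WT 0.00) and from leaving out WT 3 (Vip), KO 3 (Rorb) or WT-swim 1 (Prok2). Without KO 3, KE versus KO for Rorb was -0.36. Of the 1305, 79 changed sign, 20 of them with the slide, and none passed the threshold in either fit. There were 3 arrays per group, and WT and swimmers lay on separate slides. The farthest 95% bounds of a log2 difference between groups were 0.71 (KO versus WT) and -0.81 (KE versus WT). With the slide block they were 0.91 and -1.04, both in WT-swim versus WT. The bounds of the interaction reached -0.89, or -0.99 with the slide block.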

Other observations

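The second probe of Prokr2 (chromosome 2 of mm9, 132166576 to 132166635) was at 6.21 and well above background on WT 2, and between 1.82 and 1.86 and not well above background on the 11 other arrays. The leading Prokr2 probe, at 8.27 on WT 2, lay between the other WT arrays. Of the 3 dim Vipr2 probes, 1 was well above background on 2 arrays, WT 1 and WT-swim 3, and the others on none (0).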
